A study of Mus musculus with 10 samples.

Results

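Chemerin and its receptors form a small signalling axis of 4 genes, namely Rarres2, which encodes the ligand chemerin, Cmklr1, which encodes its main signalling receptor, Gpr1, which encodes a further receptor, and Ccrl2, which encodes a receptor that binds chemerin without signalling. The axis was read in the bone marrow (BM) of mice transplanted with fetal hematopoietic stem cells (HSCs). Each gene was taken by its symbol from the probe sets that list 1 gene only, with the highest mean signal where a gene has several. Each of the 4 genes had 1 such probe set, so all 4 members were measured, out of 19938 genes and 35556 probe sets in all. The axis was chosen on measured values of these same arrays, because the difference of Rarres2 between the groups was already known, so the values of the 4 genes in this contrast are given as a description without a test.

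The study asked whether vitamin D deficiency in the womb leaves a lasting program in HSCs, and transplanted fetal liver HSCs (FL-HSCs) from VD(−) or VD(+) dams into vitamin D-sufficient mice. VD(−) donors were embryos of dams on a diet deficient in vitamin D from before pregnancy, and VD(+) donors were embryos of dams on a sufficient diet. All mice of the arrays are labelled C57BL6, with an age of 8 weeks and both sexes, without a sex for any single array. In the C57BL6 model of the study the donors carried CD45.2 and the recipients CD45.1, the donated cells were pools of male and female embryos, and the recipients were lethally irradiated males and females on a sufficient diet. Total RNA of recipient BM was hybridized to 10 arrays, 5 for VD(−) and 5 for VD(+) HSC recipients. In each group 3 arrays carried single samples and 2 carried pools, and the sources used here do not say whether the pools contain RNA of the single mice, so the spread between arrays may be partly technical. BM is the source in the labels, but their treatment field speaks of BM macrophages, and the sources differ on the time between transplant and collection. In the study the recipients were already 8 weeks old at transplant, so the labelled age cannot be that at collection. The array is called a miRNA array in the methods, but its probe sets are those of a whole-transcript gene array. Donor origin was checked in leukocytes of the blood and in immune cells of epididymal fat. Neither covers cells of the host marrow, such as fat and stromal cells that irradiation leaves behind, so these can contribute RNA. In RNA of a whole tissue, fewer cells of a type and less RNA per cell cannot be told apart.

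Chemerin is secreted as an inactive precursor, and proteases of neutrophils, mast cells, coagulation and fibrinolysis clip its C-terminus to make it active or to inactivate it. Active chemerin attracts macrophages, plasmacytoid dendritic cells and NK cells through Cmklr1, a G protein-coupled receptor. Ccrl2 is an atypical receptor that holds chemerin at the cell surface, where it can be presented to Cmklr1 on neighbouring cells. Liver and fat are major sources of chemerin, which is therefore counted among the adipokines, and its gene takes its name from the response to retinoids.

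Values are on the log2 scale as deposited, where a difference of 1 is a ratio of 2, and each difference is VD(−) less VD(+) with the moderated standard error (SE) of limma over the 10 arrays. The array medians lay between 4.74 and 4.80. Among all genes the median difference was 0.0010, the median size of a difference was 0.079, and 50.3% of genes had a difference above 0. At an adjusted p under 0.05, 42 of 35556 probe sets passed, which is 0.118%. At a nominal p under 0.05, 4.05% of all genes were higher and 2.95% lower in VD(−). All VD(−) arrays lay above all VD(+) arrays in 1.09% of genes and below them in 0.632%. These shares stand beside the counts of every list below. The mean signal of Kdm5d, Eif2s3y and Uty, which are Y-linked, was 6.64 for replicate 1 of the VD(−) group, 5.31 and 6.80 for its pools, and between 2.25 and 2.56 for the other 7 arrays. Every array with Y-linked signal is therefore in the VD(−) group. For the members, the lists and those leading genes of each list whose difference is printed, the value without these 3 arrays is given under 3 conditions. These are that it turns the sign, moves the value by over 1.5 times or ends a call. Leading genes without a printed difference can move as well, as Fabp4 of the adipocyte list did from 0.34 to −0.043. Printed list genes that are not among the leading genes, such as C3ar1, Vdr and Cxcl12, are given with all 10 arrays only. Markers of neutrophils, B cells and erythroid cells, the main populations of BM, were all brighter than 95% of the olfactory and vomeronasal receptor genes, which marrow should not express and which served as a reference for low signal.

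Rarres2 was brighter in every VD(−) array than in any VD(+) array. In VD(−) HSC recipient BM its signal was 7.85, 7.63 and 7.71 in the single samples and 8.09 and 7.81 in the pools. In VD(+) recipients it was 6.59, 6.96 and 7.00 in the single samples and 7.26 and 7.32 in the pools. The groups did not overlap, and the dimmest VD(−) array, replicate 2, lay above the brightest VD(+) array, pool 2. The group means were 7.82 ± 0.17 and 7.03 ± 0.29 (SD, n = 5 arrays each), a difference of 0.79 (SE 0.14) and a ratio of 1.73. The mean signal was above that of every olfactory and vomeronasal receptor gene and at percentile 83.2 of all probe sets. Only 18 of 19938 genes had a larger difference in the same direction, which describes the value that chose the axis and supports nothing further.

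The difference of Rarres2 had the same sign in both kinds of RNA. It was 0.88 between the single samples and 0.66 between the pools, and in both groups the mean of the pools lay above that of the single samples. With the 3 arrays with Y-linked signal left out, the difference was 0.65 (SE 0.19), and with the sex-linked signal as a covariate it was 0.65 (SE 0.17). Leaving out any 1 array gave between 0.68 and 0.86, the lowest without VD(+) replicate 1, the dimmest array of all. The difference was positive in all 18 settings run for it. As the groups did not overlap, any choice of arrays from both groups had to give a positive difference. The sign in those settings therefore adds no support.

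**Figure D1:**
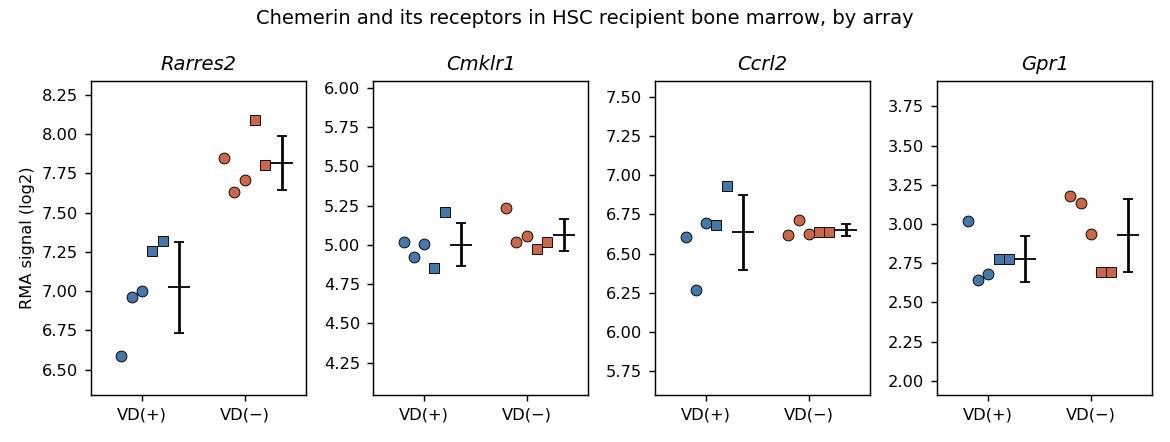
Log2 signal of Rarres2, Cmklr1, Ccrl2 and Gpr1 (vertical axes, each spanning the same width in log2 units at its own height) in VD(+) and VD(−) HSC recipient BM. Circles are single samples, squares are pools, and the bars give the mean ± SD of 5 arrays. The VD(−) arrays of Rarres2 lie between 7.63 and 8.09, all above the VD(+) arrays, while the groups of the other 3 genes overlap.

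Cmklr1, the receptor through which chemerin attracts macrophages, did not separate the groups. Its signal was 5.24, 5.02 and 5.06 in the single VD(−) samples and 4.98 and 5.02 in the VD(−) pools. It was 5.02, 4.92 and 5.004 in the single VD(+) samples and 4.85 and 5.21 in the VD(+) pools. The groups overlapped, with VD(−) replicate 1 and VD(+) pool 2 the brightest of their groups. The means were 5.06 ± 0.10 and 5.002 ± 0.14 (SD, n = 5 each), a difference of 0.060 (SE 0.083), which is smaller than its error, and 0.037 (SE 0.11) without the 3 arrays with Y-linked signal. The level, at percentile 54.2 of all probe sets, was above 99.2% of the olfactory and vomeronasal receptor genes.

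Ccrl2, the atypical receptor that presents chemerin, had nearly the same mean in both groups but a different spread. It was at 6.62, 6.72 and 6.63 in the single VD(−) samples and at 6.64 in both VD(−) pools. In the VD(+) group it was at 6.603, 6.27 and 6.70 in the single samples and at 6.68 and 6.93 in the pools. The VD(−) arrays spanned 0.097 and lay wholly within the VD(+) arrays, which spanned 0.67, with VD(+) replicate 2 the dimmest and VD(+) pool 2 the brightest array. The difference of the means was 0.013 (SE 0.11), from 6.65 ± 0.039 and 6.64 ± 0.24 (SD, n = 5 each). Its sign depended on the arrays, as the single samples differed by 0.13 and the pools by −0.17, and it was 0.037 (SE 0.17) without the 3 arrays with Y-linked signal. Whether the spreads of the groups differ was not tested.

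Gpr1, the further chemerin receptor, was close to the limit of what the arrays can measure. Its signal was 3.18, 3.13 and 2.93 in the single VD(−) samples and 2.69 in both VD(−) pools. In VD(+) recipients it was 3.02, 2.64 and 2.68 in the single samples and 2.78 in both pools. VD(−) replicates 1 and 2 lay above every VD(+) array, while the VD(−) pools lay below the VD(+) pools. The means of 2.93 ± 0.23 and 2.78 ± 0.15 (SD, n = 5 each) differed by 0.15 (SE 0.12), with 0.30 between the single samples, −0.085 between the pools and 0.25 without the 3 arrays with Y-linked signal. Only 73.9% of the olfactory and vomeronasal receptor genes were dimmer than Gpr1, and 95% of them lay below 3.93, so its values cannot be told from the signal of genes that marrow should not express.

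Of the 4 genes, 1 had groups that did not overlap, and it was higher in VD(−). Over all 19938 genes the 5 VD(−) arrays lay above the 5 VD(+) arrays in 1.09% and below them in 0.632%. None of the 4 genes passed an adjusted p under 0.05. The contrast chose the axis, so nothing was read from these counts. Within the groups the members followed each other weakly. The correlation of their deviations from the group means over the 10 arrays was 0.063 between Rarres2 and Cmklr1, 0.37 between Rarres2 and Ccrl2 and −0.50 between Rarres2 and Gpr1, and among the receptors it lay between 0.18 and 0.47. These correlations are descriptions over arrays that share groups and possibly mice.

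The enzymes that cut chemerin were next compared, 14 of 15 listed proteases being measured. None passed an adjusted p under 0.05, and none reached a nominal p under 0.05 in either direction, where 4.05% of all genes did so with higher and 2.95% with lower signal in VD(−). Their median difference was 0.082, with 9 above and 5 below 0, and it was 0.023 without the 3 arrays with Y-linked signal. Plau, the urokinase that activates plasminogen, differed by 0.26 (SE 0.13), and its arrays overlapped, from 5.64 to 5.92 in VD(−) and from 5.04 to 5.79 in VD(+). Ctsl, a lysosomal cysteine protease, differed by 0.30 (SE 0.18), and Prtn3, proteinase 3 of neutrophil granules, by 0.17 (SE 0.12). Without the 3 arrays with Y-linked signal Ctsl differed by 0.046 (SE 0.21) and Prtn3 by 0.34 (SE 0.14). The neutrophil serine proteases Elane and Ctsg were near each other, at 0.068 (SE 0.11) and 0.096 (SE 0.12). Of the 14 measured genes, 7, which include plasminogen itself (Plg), both tryptases (Tpsab1, Tpsb2) and both subunits of carboxypeptidase N (Cpn1, Cpn2), lay within the reference for low signal.

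The proteins that carry the signal of Cmklr1 into the cell had a median difference of −0.030 over 18 of 22 listed genes, and of 0.017 without the 3 arrays with Y-linked signal. Of these, 1 was higher and 1 lower at a nominal p under 0.05, where 4.05% and 2.95% of all genes were. None passed the adjusted p. Grk5, a kinase that switches off activated receptors, was higher in each VD(−) array, from 6.54 to 6.90 against 6.44 to 6.53, with a difference of 0.22 (SE 0.077, adjusted p = 0.580 from limma). Grk6, a kinase of the same family, had a difference of −0.29 (SE 0.11, adjusted p = 0.638 from limma). Gnai1, an inhibitory G protein subunit of the kind through which chemerin receptors signal, differed by 0.30 (SE 0.16, adjusted p = 0.748 from limma). Without the 3 arrays with Y-linked signal the differences were 0.37 (SE 0.083) for Grk5, −0.18 (SE 0.12) for Grk6 and 0.089 (SE 0.16) for Gnai1. The genes for the arrestins that take receptors off the surface, Arrb1 and Arrb2, had differences of −0.10 (SE 0.084) and −0.16 (SE 0.096).

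Receptors related to Cmklr1 by sequence or by the cells they attract had a median difference of 0.014 over 9 of 12 listed genes. At a nominal p under 0.05, 3 were higher and 1 lower, where 4.05% and 2.95% of all genes were, and none passed the adjusted p. Without the 3 arrays with Y-linked signal this median was 0.21, and with the sex-linked signal as a covariate it was 0.22. The 4 genes were Cysltr1 and Cysltr2, receptors for cysteinyl leukotrienes, Ptafr, the receptor for platelet-activating factor, and C3ar1, the receptor for complement fragment C3a. Cysltr1 differed by 0.36 (SE 0.12, adjusted p = 0.578 from limma), with 5.21 to 5.90 in VD(−) and 5.01 to 5.29 in VD(+). Cysltr2 differed by −0.48 (SE 0.14, adjusted p = 0.514 from limma), with 4.05 to 4.74 in VD(−) and 4.54 to 5.19 in VD(+). Both receptors for the same ligands thus had differences of opposite sign, with overlapping arrays in each case. Ptafr differed by 0.25 (SE 0.099, adjusted p = 0.645 from limma) and C3ar1 by 0.32 (SE 0.13, adjusted p = 0.651 from limma). C5ar1 and C5ar2, the receptors for complement fragment C5a, differed by 0.0030 (SE 0.14) and 0.014 (SE 0.11).

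The chemokine receptors to which Ccrl2 is closest, together with the other atypical receptors, had a median difference of 0.15 over 14 of 15 listed genes. Of these, 11 were above and 3 below 0, where 50.3% of all genes were above 0. At a nominal p under 0.05, 3 were higher, where 4.05% of all genes were, none was lower, and none passed the adjusted p. Ccr2, which brings monocytes out of the marrow, differed by 0.28 (SE 0.13, adjusted p = 0.70 from limma), with overlapping arrays, from 8.92 to 9.03 in VD(−) and from 8.37 to 9.02 in VD(+). Ccr9, which plasmacytoid dendritic cells carry, differed by 0.43 (SE 0.17, adjusted p = 0.649 from limma), and by 0.73 (SE 0.18) without the 3 arrays with Y-linked signal. Ccr1l1 differed by 0.36 (SE 0.11, adjusted p = 0.539 from limma) and was 1 of 5 genes of this list within the reference for low signal.

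Retinoid and nuclear receptor genes were listed because the Rarres2 gene responds to retinoids. Over 19 measured genes of 20 listed the median difference was −0.014 (0.019 without the 3 arrays with Y-linked signal), with 9 above and 10 below 0. At a nominal p under 0.05, 3 were higher and 1 lower, where 4.05% and 2.95% of all genes were, and none passed the adjusted p. Tgm2, a transglutaminase that retinoids induce in myeloid cells, was higher in each VD(−) array, from 6.16 to 6.49 against 5.77 to 6.07, a difference of 0.35 (SE 0.087, adjusted p = 0.330 from limma). Aldh1a2, which makes retinoic acid from retinal, differed by 0.58 (SE 0.19, adjusted p = 0.555 from limma) with overlapping arrays, from 4.93 to 5.77 in VD(−) and from 4.26 to 5.02 in VD(+), and by 0.93 (SE 0.21) without the 3 arrays with Y-linked signal. Crabp2, which delivers retinoic acid to its receptor, differed by −0.17 (SE 0.067, adjusted p = 0.659 from limma). Vdr, the vitamin D receptor, differed by 0.24 (SE 0.10, adjusted p = 0.683 from limma). The retinoic acid receptors Rara and Rarg differed by −0.082 (SE 0.10) and 0.021 (SE 0.10). Rarres1, named for the same retinoid response, differed by −0.050 (SE 0.13) within the reference for low signal.

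Among other adipokines, Angptl4, an inhibitor of lipoprotein lipase that PPARs induce, rose in VD(−) HSC recipient BM. Its signal was 6.59, 6.47 and 6.63 in the single VD(−) samples and 6.77 and 6.73 in the pools. In VD(+) recipients it was 5.93, 6.15 and 6.005 in the single samples and 5.93 and 6.25 in the pools. The groups did not overlap, and the difference was 0.59 (SE 0.088, adjusted p = 0.0376 from limma). Leaving out 1 array kept this call only without VD(−) replicate 2 (adjusted p = 0.0383). Without any 1 of the other 9 arrays the adjusted p from limma reached as much as 0.14, with a difference between 0.55 and 0.63. The call also ended without the 3 arrays with Y-linked signal, where the difference was 0.50 (SE 0.12, adjusted p = 0.556 from limma), and with the sex-linked signal as a covariate, where it was 0.53 (SE 0.11, adjusted p = 0.237 from limma).

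Angptl4 was the only 1 of 12 measured adipokines of 14 listed to pass the adjusted p, and the median difference of the list was −0.012 (0.072 without the 3 arrays with Y-linked signal), with 5 above and 7 below 0. Retn, which encodes resistin, was also brighter in each VD(−) array, from 4.76 to 5.23 against 4.41 to 4.68, with a difference of 0.42 (SE 0.11, adjusted p = 0.355 from limma), which was 0.20 (SE 0.10) without the 3 arrays with Y-linked signal. Adipoq, which encodes adiponectin, differed by 0.53 (SE 0.29, adjusted p = 0.748 from limma) and by −0.083 (SE 0.24) without the 3 arrays with Y-linked signal. Its signal was at 9.04, 7.77 and 8.26 in the single VD(−) samples, at 9.43 and 8.64 in the VD(−) pools and between 7.72 and 8.63 in VD(+). The groups overlapped for Adipoq. Lep, which encodes leptin, differed by −0.017 (SE 0.12) within the reference for low signal, and Lcn2, a neutrophil lipocalin, by −0.031 (SE 0.076).

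**Figure D2:**
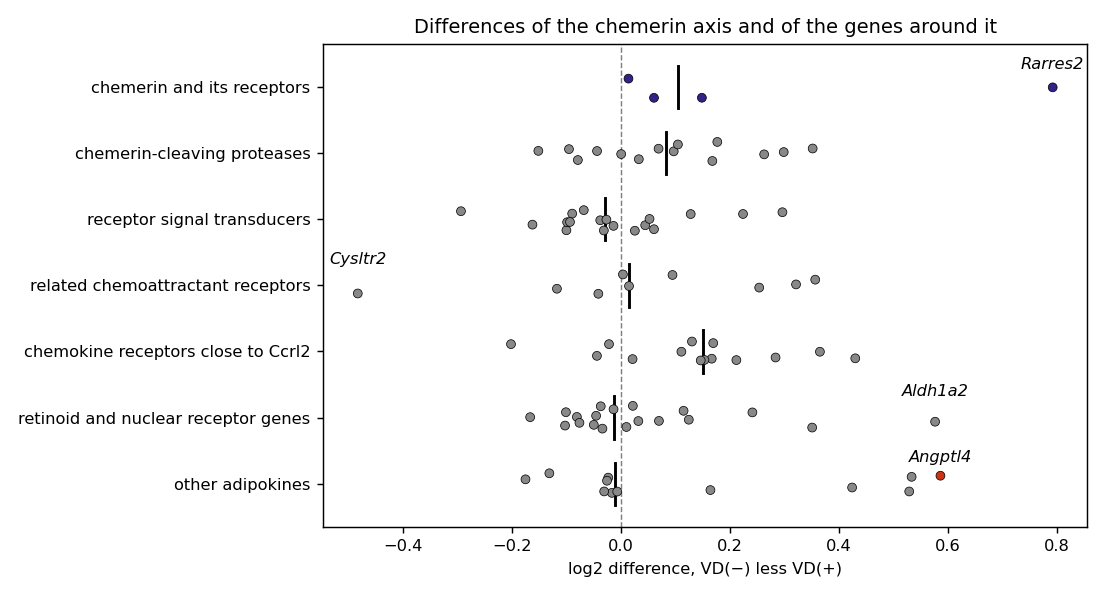
Log2 difference, VD(−) less VD(+), of each measured gene (points, horizontal axis) in chemerin and its receptors (blue) and in 6 lists of genes around them (rows), with the median of each row as a vertical bar and a dashed line at 0. The only drawn gene past an adjusted p under 0.05 is in red (Angptl4). Rarres2, whose difference was known when the axis was chosen, lies at 0.79, to the right of every gene of these 6 lists. Cd14, Cidec and Vsig4 of the marker lists, which are not drawn, had larger differences.

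Cells that could supply or answer chemerin were followed through their markers, as the mean log2 signal of each list per array. Genes of adipocytes, a source of chemerin, had a median difference of 0.31, with 12 of 13 measured genes (of 15 listed) above 0. None reached a nominal p under 0.05 and none passed the adjusted p. Of all genes, 50.3% were above 0, and 4.05% were higher and 2.95% lower at that nominal p. The list mean was 7.09, 6.29 and 6.64 in the single VD(−) samples, 7.39 and 6.94 in the VD(−) pools and between 6.50 and 6.86 in VD(+). The 3 VD(−) arrays with Y-linked signal, between 6.94 and 7.39, were the brightest of the 10, and the other 2 VD(−) arrays, at 6.29 and 6.64, did not exceed the VD(+) range. Cidec, a lipid droplet protein of fat cells, had the largest difference of the list at 0.99 (SE 0.48, adjusted p = 0.732 from limma), with 4.30 in VD(−) replicate 2 and 7.30 in VD(−) pool 1, and −0.21 (SE 0.25) without the 3 arrays with Y-linked signal. Of the listed genes, Lep alone lay within the reference for low signal. The median difference of the adipocyte genes was −0.12 without the 3 arrays with Y-linked signal and −0.080 with the sex-linked signal as a covariate.

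Genes of marrow stroma and osteoblasts had a median difference of 0.11. Above 0 were 14 of 19 measured genes (of 21 listed), and 50.3% of all genes. At a nominal p under 0.05, where 4.05% of all genes were higher, 4 were higher and none lower, and none passed the adjusted p. The 4 were Mgp, a matrix protein that keeps tissue from calcifying, with 0.57 (SE 0.16, adjusted p = 0.427 from limma), Postn, which encodes periostin, with 0.50 (SE 0.18), Lepr, the leptin receptor of marrow stromal cells, with 0.33 (SE 0.13), and Cxcl12, the chemokine that keeps HSCs in their niche, with 0.24 (SE 0.096). The list mean ranged from 6.07 to 6.43 in VD(−) and from 5.92 to 6.24 in VD(+), so the groups overlapped, and 2 genes (Sp7, Lum) lay within the reference for low signal. Endothelial genes had a median difference of 0.070 over 12 genes, with none at a nominal p under 0.05, and overlapping list means of 5.47 to 5.74 and 5.37 to 5.61. The median was −0.093 for the stroma list and −0.011 for the endothelial list without the 3 arrays with Y-linked signal, and Postn then differed by 0.29 (SE 0.26). The part of adipocytes, stroma and endothelium in the difference of Rarres2 was not tested.

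Genes of tissue macrophages, which carry Cmklr1, had a median difference of 0.18, with 17 of 18 above 0, 3 higher at a nominal p under 0.05 and none past the adjusted p. Of all genes, 50.3% were above 0 and 4.05% were higher at that nominal p. The list mean was between 7.44 and 7.94 in VD(−) and between 7.06 and 7.61 in VD(+), and these ranges overlapped. Vsig4, a complement receptor, was brighter in each VD(−) array, from 5.67 to 5.995 against 3.86 to 5.53, with a difference of 0.84 (SE 0.28, adjusted p = 0.561 from limma). Cd68, a lysosomal glycoprotein, did not overlap either and differed by 0.27 (SE 0.078, adjusted p = 0.482 from limma). Timd4, which binds dying cells, differed by 0.42 (SE 0.17, adjusted p = 0.671 from limma). The median of the list was 0.047 without the 3 arrays with Y-linked signal. The arrays of Cmklr1 itself, with its difference of 0.060, overlapped.

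**Figure D3:**
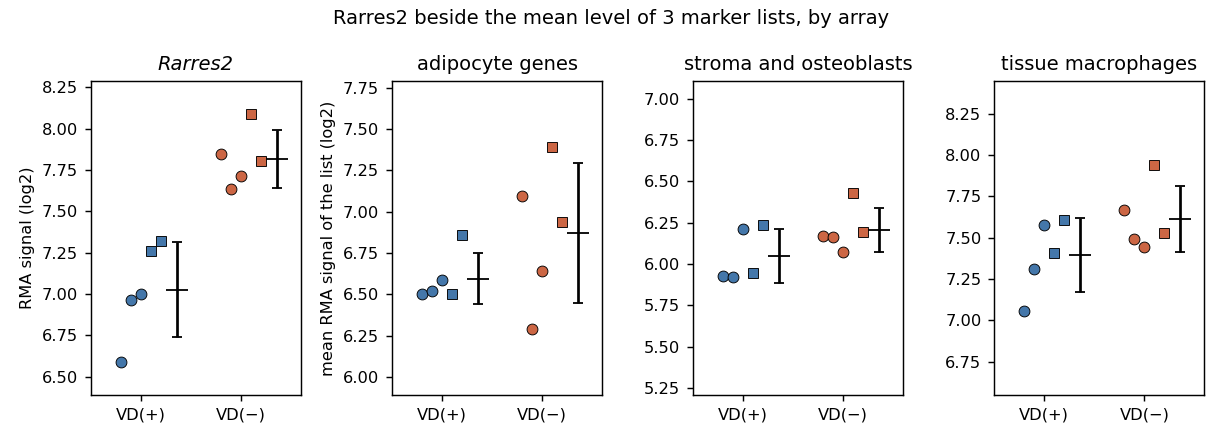
Log2 signal of Rarres2 and mean log2 signal of the marker lists of adipocytes, of marrow stroma and osteoblasts and of tissue macrophages (vertical axes of equal width in log2 units) in VD(+) and VD(−) HSC recipient BM. Circles are single samples, squares are pools, and bars give the mean ± SD of 5 arrays. The groups do not overlap for Rarres2 and overlap for each list mean, with adipocyte genes at 6.29 in VD(−) replicate 2 and at 7.39 in VD(−) pool 1.

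Among monocyte genes, 6 of 11 measured (of 12 listed) were above 0, with 2 higher and 1 lower at a nominal p under 0.05. Among all genes 50.3% were above 0, and 4.05% were higher and 2.95% lower at that nominal p. The median difference of the monocyte genes was 0.022, and it was 0.18 without the 3 arrays with Y-linked signal and 0.17 with the sex-linked signal as a covariate. Cd14, the co-receptor for lipopolysaccharide, rose by 1.70 (SE 0.19, adjusted p = 0.0109 from limma). This call was lost without VD(+) replicate 3, where the adjusted p from limma was 0.0540. Ccr2, given above, was the other gene higher at a nominal p under 0.05, and Nr4a1, a nuclear receptor that nonclassical monocytes need, was the lower one, with a difference of −0.29 (SE 0.092, adjusted p = 0.540 from limma). Of the cells that chemerin attracts, plasmacytoid dendritic cells had a median difference of 0.057 over 10 of 12 listed genes. At a nominal p under 0.05, 1 was higher (Ccr9) and 1 lower (Bst2, −0.30, SE 0.10), where 4.05% and 2.95% of all genes were. Without the 3 arrays with Y-linked signal this median was −0.0095 and Bst2 differed by −0.085 (SE 0.0997). NK cells had a median of 0.0095 over 12 genes (0.060 without those arrays), with none at a nominal p under 0.05. For both, no VD(−) list mean lay above the whole VD(+) range.

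Of the other marrow cells, B cell genes had a median difference of −0.28. Of 9 measured genes (of 10 listed), 7 were below 0, where 50.3% of all genes were above 0. At a nominal p under 0.05, 4 were lower (Fcer2a, Ms4a1, Cd22 and Pax5), where 2.95% of all genes were. The 2 genes above 0, Vpreb1 with 0.41 (SE 0.60) and Igll1 with 0.54 (SE 0.57), had the largest SE of the list. Only Fcer2a, which encodes the low-affinity receptor for IgE, passed the adjusted p, with a log2 difference of −0.58 (SE 0.081, adjusted p from limma 0.0305), a call that leaving out 1 array kept only without VD(+) pool 1 (adjusted p = 0.0448). Ms4a1, the gene for CD20, differed by −0.45 (SE 0.13, adjusted p = 0.521 from limma). Cd22 differed by −0.35 (SE 0.15), and by −0.57 (SE 0.20) without the 3 arrays with Y-linked signal. Without the 3 arrays with Y-linked signal the median of the B cell genes was −0.58, and with the sex-linked signal as a covariate it was −0.54. The call of Fcer2a ended in both, with an adjusted p from limma of 0.352 and 0.0831. The B cell list mean was between 7.41 and 7.93 in the 3 VD(−) arrays with Y-linked signal, 6.91 and 6.99 in the other 2, and between 7.30 and 7.69 in VD(+). Neutrophil genes, with a median of −0.059 over 12 genes, basophil and mast cell genes, with −0.020 over 10 genes, and erythroid genes, with 0.051 over 6 of 10 listed genes, had none past the adjusted p. These medians were 0.073, 0.046 and 0.015 without the 3 arrays with Y-linked signal.

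The genes whose deviations from the group means were most like those of Rarres2, among 10087 genes of at least middling signal, were Frmd4b, Nae1, Ddx18 and Larp7, each with a correlation of 0.97 over the 10 arrays, and Tcea1 with 0.96. Between the groups these genes differed by 0.17 (SE 0.11), 0.20 (SE 0.10), 0.15 (SE 0.066), 0.041 (SE 0.10) and −0.071 (SE 0.076). The genes most like Cmklr1 were Efcc1 (0.96), Mrm2 (0.90) and Tgfb1i1 (0.89), those most like Ccrl2 were Aplf (0.94), Naf1 (0.94) and Cracd (0.93), and those most like Gpr1 were Sgsh (0.96), Det1 (0.96) and Amn (0.94). With this many candidates and 10 arrays, the likeness is a description without a p.

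The neighbours of each member on its chromosome, by gene order in the GRCm38.p6 assembly, had smaller differences than Rarres2. Rarres2 was chosen with its large difference known, so this comparison adds no support. On chromosome 6 the flanking genes were Lrrc61, which overlaps Rarres2 in that assembly and differed by −0.0032 (SE 0.082), Atp6v0e2 with 0.096 (SE 0.087), Gm5111 with −0.045 (SE 0.15) and Repin1 with 0.089 (SE 0.11). On chromosome 5 the neighbours of Cmklr1 were Wscd2, Aym1, 1700069L16Rik and Ficd, with differences from −0.18 to 0.14. On chromosome 9 Ccrl2 lies beside Ltf, which encodes the lactoferrin of neutrophil granules and differed by −0.079 (SE 0.091), with Gm10030, Lrrfip2 and Epm2aip1 from −0.17 to 0.079. On chromosome 1 the neighbours of Gpr1 were Snora41, Eef1b2, Zdbf2 and Adam23, with differences from −0.093 to 0.032. None of the 16 neighbours passed an adjusted p under 0.05.

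**Figure D4:**
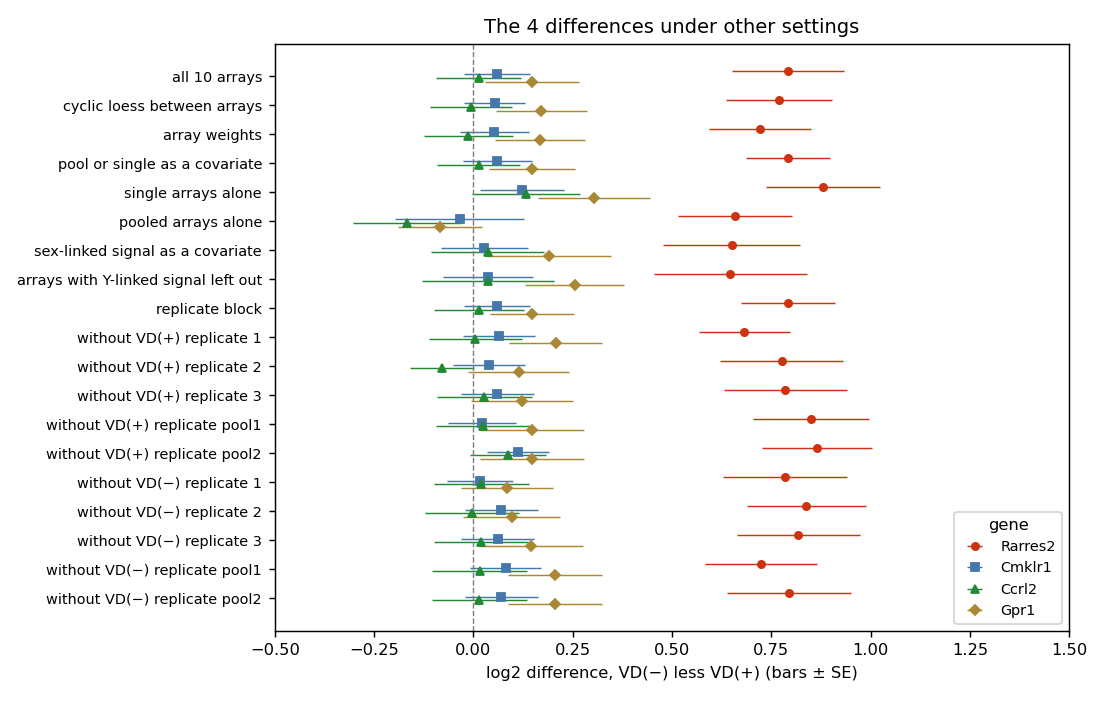
Log2 difference, VD(−) less VD(+), of the 4 genes (horizontal axis, points with bars of ± 1 SE) with all 10 arrays and under 18 other settings (rows). Rarres2 stays between 0.65 and 0.88. Cmklr1 and Gpr1 lie below 0 only in the setting with the pools alone, while Ccrl2 lies on both sides of 0.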

How the data were processed

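The 10 arrays of recipient BM RNA were grouped by the sample labels into 5 VD(−) and 5 VD(+) HSC recipients. The deposited values are log2 signals that the authors made in Partek, with RMA named in the submitters' processing notes, which corrects background, gives all arrays one distribution and summarises the probes of a set, so differences in total RNA are removed. The sources used here name neither filters nor a genome build for the probe sets. Of 35556 probe sets, 21789 list 1 gene, 1621 several and 12146 none, and 21698 of the first kind matched a gene table of GRCm38.p6 by identifier. The probe set with the highest mean was used per gene, which left 19938 genes.

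All probe sets were fitted together in limma 3.58.1 (lmFit, eBayes, two-sided tests, under R 4.3.3) with Benjamini-Hochberg adjustment over all of them and no covariate. The members, 17 lists of 234 genes and the settings were chosen with earlier results of these data known. Named genes are the members, the 3 genes of smallest nominal p in each list, the genes most like each member (leaving aside small RNAs, pseudogenes, predicted models and vomeronasal or olfactory receptors), 2 neighbours on either side and sex-linked genes, of which only some are printed. Elane, Ctsg, Plg, the tryptases, carboxypeptidase N, Arrb1, Arrb2, C3ar1, C5ar1, C5ar2, Vdr, Rara, Rarg, Rarres1, Lep, Lcn2, Cxcl12, Sp7, Lum, Pax5, Vpreb1 and Igll1 are list members outside this rule, named after their values were seen. Array numbers do not pair the groups, since the correlation of same-numbered deviations lay between −0.052 and 0.061. Precision is limited by the number of arrays. The procedure was tested on simulated data. Alternatives were cyclic loess, array weights, pool as a covariate, single samples or pools alone, sex-linked signal as a covariate, the Y-linked arrays left out, a replicate block, a trended and robust spread, brighter probe sets alone (mean above 4.74), the mean of a gene's probe sets, the methods' t-test and leaving out each array.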

Additional observations from a re-analysis of the deposited data

Results flagged for a closer look

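In groups of 5 arrays, a single array that lay far from the other 4 by Dixon's ratio (critical value 0.71) was seen in 8 of 166 groups over 83 genes, where chance gives about 1 in 20. Among the 4 members only Ccrl2 had one, with 6.72 in VD(−) replicate 2 against 6.62 to 6.64 in the other VD(−) arrays, a gap that is small beside the VD(+) spread of the same gene. Cd22, a B cell receptor gene, was low in the same array at 6.56, against 7.00 to 7.16. Lepr was at 7.18 in VD(−) replicate 1 against 7.52 to 7.59, and Prss34, a basophil protease gene, was at 7.90 in VD(−) pool 1 against 8.43 to 8.58. In VD(+) replicate 1, the array with the lowest Rarres2 signal, Cd68 was at 8.46 against 8.72 to 8.75 and Ficd, a neighbour of Cmklr1, at 4.04 against 4.41 to 4.55. Naf1, one of the genes most like Ccrl2, was at 5.04 in VD(+) replicate 2 against 5.63 to 5.84, and Gm10030, a neighbour of Ccrl2, at 3.51 in VD(+) replicate 3 against 3.93 to 4.02.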

How the results depend on the processing

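The difference of Rarres2 ranged from 0.65 to 0.88 over 18 alternatives, and leaving out 1 array gave 0.68 to 0.86. Its sign was fixed wherever arrays were left out, because the groups did not overlap. Cmklr1 ranged from −0.034 to 0.12 (0.016 to 0.11 with 1 array left out), with the negative value in the pools alone. In the pools alone Ccrl2 differed by −0.17 and Gpr1 by −0.085, against −0.079 to 0.087 and 0.085 to 0.21 with 1 array left out. The replicate block left the 4 differences as they were, at 0.79 for Rarres2, and gave 3 probe sets past the adjusted p against 42. That count was 1 in the single samples alone, 2 in the pools alone, 25 with the sex-linked covariate, 12 without the arrays with Y-linked signal, 9 by the methods' t-test and 7 to 43 with 1 array left out. Settings with fewer arrays test less, and for the others the cause was not tested. At the study's own thresholds limma gave 939 higher and 1150 lower probe sets and the methods' t-test 690 and 1153. Of the listed genes past the adjusted p, Angptl4 passed in 6 of 21 alternatives, Cd14 in 16 and Fcer2a in 5. The mean of a gene's probe sets does not apply to the members, which have 1 each. Signals near the reference for low signal, Gpr1 among them, give no reliable difference.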
